A study of Mus musculus with 16 samples.

Results

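Interferon-stimulated genes are transcribed when a cell senses type I or type II interferon, and 40 of them were followed here through the dorsal skin of mice with and without dermatitis. They were taken from the deposited tables by gene symbol. All 40 were found, each in 1 of the 23282 rows, and all 40 were among the 14854 rows that passed the filter on low counts, which asks for a minimum count in a set number of libraries, whatever their group. The rule named them by symbol and set no threshold on a measured value, although earlier results of these data were known when it was written. The mice were wild-type male C57BL/6N animals, bought when 3 weeks old and given 1 week to adapt before the diets began. The Cont group ate normal chow. The LowAhR group ate a diet low in ligands of the aryl hydrocarbon receptor (AhR) for 12 weeks and lived on paper bedding, so diet and bedding cannot be told apart between these groups. The LowAhR+AD group shared that diet and bedding and, from 2 weeks into it, had 1% DNCB in acetone and olive oil painted on the back 2 times a week for 10 weeks. DNCB is a hapten that provokes an allergic, eczema-like dermatitis, used as a model of atopic dermatitis (AD). The LowAhR+AD+BJ group had all of this and was also gavaged daily with BJIKT, a water extract of the herbal formula Bojungikgi-tang, at 1 g/kg. No vehicle on the skin is named for the groups without DNCB. No gavage with water is named for the groups without BJIKT, so the extract and the gavage cannot be told apart. Each group is represented by 4 libraries, each from a separate mouse, picked at random by the study from a larger group.

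Type I interferons bind the receptor IFNAR1/IFNAR2, whose kinases JAK1 and TYK2 activate transcription factors. Together with IRF9 these form a complex that binds the interferon-stimulated response element (ISRE) in the promoters of its targets. Type II interferon, from T cells and NK cells, acts through another receptor and another DNA element, the gamma-activated site (GAS). The induced proteins sense viral nucleic acids, degrade or block viral RNA, restrict virus particles at membranes, coat intracellular pathogens, tag proteins with ISG15, or recruit T cells as chemokines. In skin, keratinocytes, fibroblasts and immune cells all respond to interferon.

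RefSeq promoters of the build GRCm38.p6 were at hand for 32 of the 40 genes and were used to see whether the genes carry these elements. The window ran from 250 bases before the start of transcription to 50 bases after it, and was searched on both strands, counting overlapping matches. The ISRE core GAAANNGAAA was present in 15 of the 32 promoters (46.9%), against 3.99% of the 27025 genes with a promoter in the table. The spaced palindrome TTCNNNGAA of the GAS was present in 11 (34.4%), against 9.55% of those genes. Both were present in 5. The stretches of 5 genes are shown. Ifitm1, Ifih1 and Gbp7 were the genes called in the most comparisons, and Ifit1 and Isg15 are textbook ISRE targets that were called in none. Each line gives the 250 bases before the start, 5′ to 3′ on the strand of the gene, with the matches to the ISRE core and to the GAS in capitals.
Ifitm1 (chr7:140967826-140968075, plus strand): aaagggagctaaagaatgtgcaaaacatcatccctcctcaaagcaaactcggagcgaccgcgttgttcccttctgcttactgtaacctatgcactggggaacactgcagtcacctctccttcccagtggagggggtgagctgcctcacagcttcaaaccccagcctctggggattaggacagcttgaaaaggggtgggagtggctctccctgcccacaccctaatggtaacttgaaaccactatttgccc
Ifih1 (chr2:62646256-62646505, minus strand): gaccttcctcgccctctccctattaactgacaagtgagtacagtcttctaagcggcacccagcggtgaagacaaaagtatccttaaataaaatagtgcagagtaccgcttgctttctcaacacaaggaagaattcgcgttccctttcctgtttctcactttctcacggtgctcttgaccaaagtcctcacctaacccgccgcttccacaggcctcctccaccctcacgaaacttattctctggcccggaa
Gbp7 (chr3:142530086-142530335, plus strand): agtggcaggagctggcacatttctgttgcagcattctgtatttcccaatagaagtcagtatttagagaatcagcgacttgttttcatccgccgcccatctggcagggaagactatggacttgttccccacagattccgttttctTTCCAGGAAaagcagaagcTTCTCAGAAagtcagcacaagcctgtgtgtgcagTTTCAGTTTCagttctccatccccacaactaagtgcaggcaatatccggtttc
Ifit1 (chr19:34640639-34640888, plus strand): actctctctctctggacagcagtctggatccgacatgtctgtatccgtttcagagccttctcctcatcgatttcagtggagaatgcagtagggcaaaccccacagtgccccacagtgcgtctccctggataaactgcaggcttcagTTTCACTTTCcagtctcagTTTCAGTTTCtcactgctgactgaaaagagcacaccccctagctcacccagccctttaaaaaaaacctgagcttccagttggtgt
Isg15 (chr4:156200819-156201068, minus strand): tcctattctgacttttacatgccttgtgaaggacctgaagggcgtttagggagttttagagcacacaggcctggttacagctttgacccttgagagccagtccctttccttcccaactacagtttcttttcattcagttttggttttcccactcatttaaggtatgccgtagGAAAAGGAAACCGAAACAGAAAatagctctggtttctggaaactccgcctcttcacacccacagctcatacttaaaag
Gbp7 held 1 ISRE core, at bases -53 to -44 from the start, and 2 GAS matches, at -106 to -98 and -87 to -79. Ifit1 held 2 ISRE cores, and Isg15 held 3 that overlap one another. The stretch of Ifih1 held neither motif, but an ISRE core lay 33 to 42 bases into its transcript, outside the printed stretch. Neither motif was found in the window of Ifitm1, the gene that rose. That window lies inside the annotated span of Ifitm1, which begins at base 140967429. The bases before that outer start were not searched. A match is a description of these letters only.

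Total counts ranged from 7080508 to 8051425 per library in the Cont group, from 7436315 to 8773876 in LowAhR, from 11336051 to 13467477 in LowAhR+AD and from 10614393 to 12999055 in LowAhR+AD+BJ. Both DNCB-treated groups were thus sequenced more deeply than both others. Levels are given in CPM, counts scaled to one common library total after TMM normalization. A gene without a count can still have a level worth as much as 3 counts, which is 0.229 to 0.406 CPM by library and covers counting error only. Keratinocyte markers summed to 4754 to 12894 CPM, so every library carried the signature of its labelled tissue, skin. LowAhR+AD replicate 1 stood apart. It had no count for 5 of the 40 genes (Dhx58, Zbp1, Oas3, Oasl2 and Ifit2), was the lowest of all 16 libraries for 12, and its median deviation from each gene's mean over all libraries was -0.83 on the log2 scale. Its 9 macrophage markers summed to 241 CPM, against 1009 to 1651 CPM in the other LowAhR+AD libraries. Calls and medians of the interferon-stimulated genes in the LowAhR+AD group are therefore also given without it.

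The 40 genes did not move as a block in any comparison. In LowAhR against Cont 0 of the 40 were called, in LowAhR+AD against LowAhR 1 was higher and 3 were lower, and in LowAhR+AD+BJ against LowAhR+AD 0 were called. A gene was called at an adjusted p under 0.05 from the quasi-likelihood test of edgeR, with the Benjamini-Hochberg adjustment made across 14854 genes. The gene with the clearest rise was Ifitm1, which encodes a membrane protein that hinders virus entry. The clearest falls were those of Parp9, Gbp7 and Ifih1, which encode a partner of ADP-ribosylating enzymes, a guanylate binding protein and the RNA sensor MDA5. Over all libraries and groups, 7 of the 40 genes were called in at least 1 of the 5 comparisons made (17.5%, beside 26% of all genes): Ifitm1, Ifih1, Gbp7, Gbp3, Parp9, Parp14 and Samhd1. Several of the comparisons share a group, so their values are set side by side only.

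**Figure D1:**
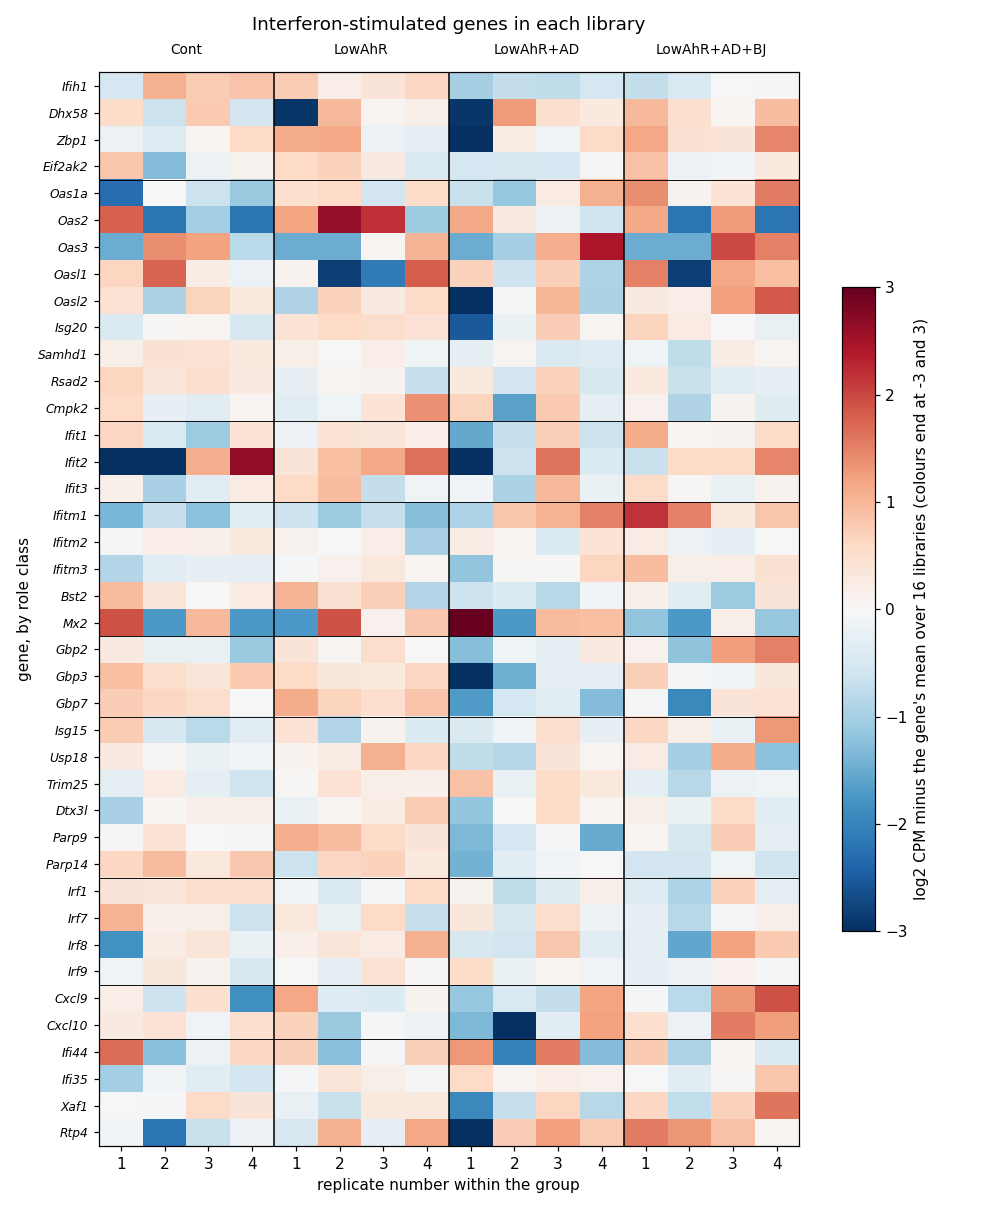
Heat map of the 40 genes (rows, by role) in the 16 libraries (columns, by group and replicate), coloured by log2 CPM minus the gene's own mean over the 16 libraries, with colours ending at -3 and 3. The column of LowAhR+AD replicate 1 holds the lowest value of 12 genes, and Ifitm1 is above all Cont and LowAhR libraries in 7 of the 8 libraries treated with DNCB.

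LowAhR against Cont asks what the diet, with its bedding, did on its own. No gene of the 40 was called by edgeR in either direction (0%), and among all tested genes 0% were called higher and 0% lower. At an unadjusted p under 0.05 the count was also 0 of the 40, against 13.7% of all genes. DESeq2 called 0 of the 40 as well, and 3.31% of all genes in either direction, and limma voom called 0 of the 40 and 0% of all genes. The median log2 fold change of the 40 was 0.11, beside 0.03 for all tested genes, with 23 fitted higher and 17 fitted lower, and it ranged from 0.047 without Cont replicate 2 to 0.32 without Cont replicate 1. In 4 genes the groups did not overlap (10% of the 40, beside 11.3% of all genes): Isg20, Ifitm3 and Ifi35 lay above Cont in every LowAhR library and Rsad2 lay below it. Isg20, a nuclease that degrades viral RNA, had 50.3, 69.2, 72.4 and 48.6 CPM in Cont and 90.6, 103, 98.7 and 92.5 CPM in LowAhR. Its log2 fold change was 0.68 with a standard error of 0.41 (adjusted p = 0.503, edgeR). For Rsad2, which encodes the antiviral enzyme viperin, the log2 fold change was -0.60 (adjusted p = 0.461, edgeR). Ifi35, which encodes a partner of the interferon-induced protein NMI, had 6.93, 13.6, 11.3 and 9.69 CPM in Cont and 13.7, 18.3, 16.1 and 13.95 CPM in LowAhR. These 4 were singled out after their values were seen.

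LowAhR+AD against LowAhR asks what DNCB did to skin under the same diet and bedding. Of the 40 genes, 1 rose (2.5%, beside 6.42% of all genes) and 3 fell (7.5%, beside 6.21% of all genes). The median log2 fold change of the 40 was -0.26, beside 0.04 for all tested genes, with 12 fitted higher and 28 fitted lower. The groups did not overlap in 4 genes (10%, beside 18.8% of all genes), namely Ifih1, Gbp3, Gbp7 and Parp9, all lower. The median without LowAhR+AD replicate 1 was -0.21, and over all fits that left out 1 library it ran from -0.50 without LowAhR+AD replicate 3 to -0.18 without LowAhR+AD replicate 2. Leaving out replicate 1 gave 1 of the 40 higher (beside 5.34% of all genes) and 4 lower (beside 6.1%), with Gbp3 added. It turned the fitted sign of 6 others, none of them called (Ifitm3, Mx2, Irf7, Irf9, Cxcl10 and Rtp4). Against Cont, which differs also in diet and bedding, 1 gene was higher (2.5%, beside 12.3% of all genes) and 5 were lower (12.5%, beside 9.47% of all genes). There the groups did not overlap in 8 genes (20%, beside 24.7%), and the median was -0.03, beside 0.05 for all tested genes. With replicate 1 of LowAhR+AD left out, that median was -0.10. In that fit 2 genes were higher (beside 12.6% of all genes) and 4 were lower (beside 10.6%). The median was -0.32 when replicate 3 of the same group was left out instead. The shares called were thus within a few percentage points of the background in the downward direction and under it in the upward direction. In bulk skin, fewer cells of a type and less RNA per cell cannot be told apart.

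Among the 4 sensors of viral RNA or DNA, Ifih1 fell and the other 3 were not called. Ifih1 encodes MDA5, which detects long double-stranded RNA in the cytoplasm. It had 9.36, 28.4, 22.7 and 24.2 CPM in the 4 Cont libraries, 22.7, 15.3, 17.4 and 20.6 in LowAhR, 6.56, 8.04, 7.84 and 9.23 in LowAhR+AD and 8.03, 9.77, 13.5 and 13.8 in LowAhR+AD+BJ. Every LowAhR+AD library lay below every Cont and every LowAhR library, and the means were 19.03 ± 3.28 CPM (SD, n = 4) in LowAhR and 7.92 ± 1.09 in LowAhR+AD. The log2 fold change was -1.26 against LowAhR, with a standard error of 0.34 (adjusted p = 0.0205, edgeR), which is 2.40-fold lower. Against Cont it was -1.42 (adjusted p = 0.00647, edgeR). Both calls held without LowAhR+AD replicate 1, at -1.19 and -1.35 (adjusted p = 0.0393 and 0.0109, edgeR). Without LowAhR replicate 1 the log2 fold change against LowAhR was -1.17 and no longer called (adjusted p = 0.0598, edgeR). Eif2ak2 encodes PKR, the kinase that stops translation when it binds double-stranded RNA, and its log2 fold change against LowAhR was -0.70 (adjusted p = 0.265, edgeR). Zbp1, a sensor of Z-form nucleic acids, had a log2 fold change of -0.75, with 0, 15.3, 12.2 and 20.1 CPM in LowAhR+AD. The library without a count was replicate 1. Dhx58, which encodes the MDA5 regulator LGP2, had a log2 fold change of 0.30 with a standard error of 1.18, and its counts were low in all groups.

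Of the 9 genes for 2′-5′ oligoadenylate synthetases and for enzymes of nucleotides or RNA, 0 were called against LowAhR and Samhd1 alone was called against Cont. Samhd1 encodes the enzyme that destroys the nucleotides viruses need for DNA synthesis. It had 112, 137, 135 and 123 CPM in Cont, 113, 99.8, 114 and 90.99 in LowAhR, 81.5, 105, 74.4 and 76.2 in LowAhR+AD and 91.7, 58.8, 116 and 106 in LowAhR+AD+BJ. Against Cont the log2 fold change was -0.59 with a standard error of 0.21 (adjusted p = 0.0485, edgeR), and the groups did not overlap. That call was close to the threshold and was lost in all but 1 of the 8 fits with a library removed, including the one without LowAhR+AD replicate 1 (adjusted p = 0.0664, edgeR). Against LowAhR the log2 fold change of Samhd1 was -0.31 (adjusted p = 0.344, edgeR). The synthetase genes Oas1a, Oas2, Oas3, Oasl1 and Oasl2, whose products switch on RNase L or act beside it, were sparse. No library exceeded 18.3 CPM for any of them, which was Oasl2 in LowAhR+AD+BJ replicate 4, and Oas3 had no count in 6 of the 16 libraries. Their standard errors against LowAhR, 0.79 to 1.81 on the log2 scale, were large at this depth. Isg20 had 11.7, 59.5, 114 and 71.4 CPM in LowAhR+AD, a range that spanned the values of all 12 other libraries. Rsad2 and Cmpk2, neighbours on chromosome 12 that encode viperin and a mitochondrial nucleotide kinase, had log2 fold changes of 0.24 and -0.34, both smaller than their standard errors.

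The 3 IFIT genes, whose products bind foreign RNA and block its translation, were fitted lower against LowAhR, and 0 of 3 were called. Ifit1 had 23.99, 11.4, 7.40 and 20.9 CPM in Cont, 13.8, 20.8, 20.2 and 18.1 in LowAhR, 5.26, 9.59, 25.8 and 9.87 in LowAhR+AD and 34.1, 16.3, 16.9 and 23.6 in LowAhR+AD+BJ. The LowAhR+AD libraries spread on both sides of the LowAhR libraries. The log2 fold change against LowAhR was -0.53 with a standard error of 0.45 (adjusted p = 0.474, edgeR), a value that moved to -0.28 on leaving out LowAhR+AD replicate 1 (adjusted p = 0.739, edgeR) and to -1.14 on leaving out replicate 3 of that group (adjusted p = 0.0853, edgeR). For Ifit2 and Ifit3 it was -0.98 and -0.21, and Ifit2 ranged from 0 to 16.5 CPM within the Cont group alone.

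Among the 5 genes that act on membranes or virus particles, Ifitm1 rose and 4 were not called. The IFITM proteins sit in membranes of the cell and its endosomes, where they hinder the fusion of enveloped viruses. Ifitm1 had 10.6, 17.3, 11.8 and 22.3 CPM in Cont, 18.1, 13.05, 17.3 and 11.3 in LowAhR, 14.7, 49.8, 58.2 and 79.5 in LowAhR+AD and 126, 80.6, 34.1 and 50.1 in LowAhR+AD+BJ. Of the LowAhR+AD libraries, 3 lay above every library of Cont and LowAhR, while replicate 1 lay among them. The mean was 14.9 ± 3.28 CPM (SD, n = 4) in LowAhR and 50.5 ± 26.97 in LowAhR+AD. The log2 fold change against LowAhR was 1.76 with a standard error of 0.45 (adjusted p = 0.0160, edgeR), a 3.38-fold rise, and against Cont it was 1.70 (adjusted p = 0.0110, edgeR). Without LowAhR+AD replicate 1 these became 2.06 and 1.99 (adjusted p = 0.00218 and 0.00100, edgeR). Leaving out LowAhR+AD replicate 4 gave 1.45 against LowAhR, just short of the threshold (adjusted p = 0.0508, edgeR), and limma voom did not call it (1.55, adjusted p = 0.0880). Ifitm2 and Ifitm3 lie beside Ifitm1 on chromosome 7, and reads shared among such copies are uncertain because the treatment of reads that map to several places is not given in the sources used here. Ifitm2 had 193 ± 59.7 CPM in LowAhR and 223 ± 50.3 in LowAhR+AD, a log2 fold change of 0.21 (adjusted p = 0.615, edgeR). Ifitm3 had a log2 fold change of -0.10 (adjusted p = 0.871, edgeR), with 348 to 1222 CPM in LowAhR+AD. Bst2 encodes tetherin, which holds budding virus on the cell surface. It had 43.1, 29.03, 35.1 and 11.4 CPM in LowAhR and 13.6, 15.7, 11.7 and 19.9 in LowAhR+AD, and its log2 fold change of -0.96 did not pass (adjusted p = 0.104, edgeR). Without LowAhR replicate 4, the lowest of its group, Bst2 was called lower (-1.23, adjusted p = 0.0262, edgeR). Mx2, a dynamin-like antiviral GTPase, stayed at or under 2.31 CPM outside LowAhR+AD replicate 1, which had 5.49 CPM.

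The 3 guanylate binding protein genes had the lowest median log2 fold change of the role classes against LowAhR, -1.41, with 1 of 3 called. Their products are GTPases that coat the vacuoles of intracellular bacteria and parasites, and interferon gamma is a strong inducer. Gbp7 had 52.2, 48.03, 45.6 and 31.6 CPM in Cont, 68.3, 50.1, 44.6 and 56.6 in LowAhR, 9.53, 21.7, 24.7 and 12.7 in LowAhR+AD and 30.5, 8.04, 41.3 and 42.1 in LowAhR+AD+BJ. All 4 LowAhR+AD libraries lay below all 8 libraries of Cont and LowAhR. The mean went from 54.9 ± 10.2 CPM (SD, n = 4) in LowAhR to 17.2 ± 7.21 in LowAhR+AD, a log2 fold change of -1.68 with a standard error of 0.40 (adjusted p = 0.0117, edgeR), or 3.20-fold lower. Against Cont it was -1.37 (adjusted p = 0.0202, edgeR). Both were still called without LowAhR+AD replicate 1, at -1.48 and -1.18 (adjusted p = 0.0269 and 0.0429, edgeR). The call against Cont was lost without Cont replicate 1 (-1.28, adjusted p = 0.0505, edgeR) and without LowAhR+AD replicate 4 (-1.25, adjusted p = 0.0617, edgeR). Its neighbour Gbp3 had 23.1, 17.9, 15.9 and 21.4 CPM in Cont, 18.8, 15.6, 15.1 and 18.96 in LowAhR, 1.07, 4.35, 10.1 and 10.3 in LowAhR+AD and 20.3, 12.1, 11.5 and 15.6 in LowAhR+AD+BJ. Every LowAhR+AD library lay below every library of the 3 other groups. Against Cont the log2 fold change of Gbp3 was -1.60 (adjusted p = 0.0214, edgeR). Against LowAhR it was -1.41 with a standard error of 0.47 and missed the threshold (adjusted p = 0.0574, edgeR). Without LowAhR+AD replicate 1, whose level of Gbp3 was the lowest, the fall against LowAhR was smaller but passed (-1.06, adjusted p = 0.0494, edgeR), and DESeq2 and limma voom also called it (-1.43 and -1.87, adjusted p = 0.0216 and 0.0231). It also passed without LowAhR+AD replicate 3 or 4 (adjusted p = 0.0365 and 0.0419, edgeR). The call against Cont held without LowAhR+AD replicate 1 (-1.26, adjusted p = 0.0116, edgeR) and was lost without Cont replicate 1 or LowAhR+AD replicate 2 (adjusted p = 0.0506 and 0.0632, edgeR). Gbp2, the third of the neighbours on chromosome 3, had 32.7, 26.5, 36.4 and 25.4 CPM in LowAhR and 10.2, 22.7, 20.7 and 30.4 in LowAhR+AD. Its log2 fold change of -0.53 was not called (adjusted p = 0.484, edgeR). As with the Ifitm genes, the division of reads among these close copies is uncertain.

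Of the 6 genes that act through ISG15, ubiquitin or ADP-ribose, Parp9 fell against LowAhR and Parp14 fell against Cont. PARP9 forms a complex with the ubiquitin ligase DTX3L, and PARP14 adds single ADP-ribose units to proteins. Parp9 had 17.4, 22.7, 17.1 and 16.5 CPM in Cont, 36.8, 32.9, 25.5 and 22.5 in LowAhR, 6.56, 11.7, 16.6 and 5.86 in LowAhR+AD and 18.1, 12.1, 28.5 and 14.01 in LowAhR+AD+BJ. Every LowAhR+AD library lay below every LowAhR library, and the highest of them overlapped with the lowest of Cont. The log2 fold change was -1.53 against LowAhR with a standard error of 0.36 (adjusted p = 0.0102, edgeR), a 2.88-fold fall, and this call held in all 8 fits that left out 1 library (-1.37 without LowAhR+AD replicate 1, adjusted p = 0.0233, edgeR). Against Cont it was -0.86 (adjusted p = 0.0930, edgeR), and it passed only without LowAhR+AD replicate 3 (-1.19, adjusted p = 0.0278, edgeR). In LowAhR, 3 of 4 libraries lay above every Cont library, at a log2 fold change of 0.67 (adjusted p = 0.419, edgeR). Dtx3l, whose annotated span overlaps that of Parp9 on chromosome 16, had a log2 fold change of -0.27 against LowAhR (adjusted p = 0.725, edgeR). Parp14 had 38.6, 48.03, 31.1 and 43.9 CPM in Cont, 15.95, 38.6, 40.7 and 30.5 in LowAhR, 9.15, 19.9, 23.3 and 25.04 in LowAhR+AD and 16.7, 17.1, 22.8 and 16.4 in LowAhR+AD+BJ. Both groups treated with DNCB lay below every Cont library. The log2 fold change of Parp14 was -1.06 against Cont with a standard error of 0.32 (adjusted p = 0.0249, edgeR) and -0.70 against LowAhR (adjusted p = 0.162, edgeR). The call against Cont held without LowAhR+AD replicate 1 (-0.84, adjusted p = 0.0416, edgeR) and was lost without Cont replicate 2 (adjusted p = 0.0696, edgeR), Cont replicate 4 (0.0579) or LowAhR+AD replicate 2 (0.0508). Isg15 itself, the ubiquitin-like modifier, had 40.4, 16.2, 32.1 and 22.4 CPM in LowAhR and 21.96, 27.9, 43.2 and 25.3 in LowAhR+AD, and the log2 fold change was 0.09 with a standard error of 0.39. Usp18, the protease that removes ISG15, had a log2 fold change of -0.77 (adjusted p = 0.369, edgeR) and Trim25, a ubiquitin ligase, one of 0.23 (adjusted p = 0.606, edgeR). Against Cont Trim25 was called higher without Cont replicate 2 (0.84, adjusted p = 0.04998, edgeR) or LowAhR+AD replicate 2 (0.82, adjusted p = 0.0382, edgeR).

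**Figure D2:**
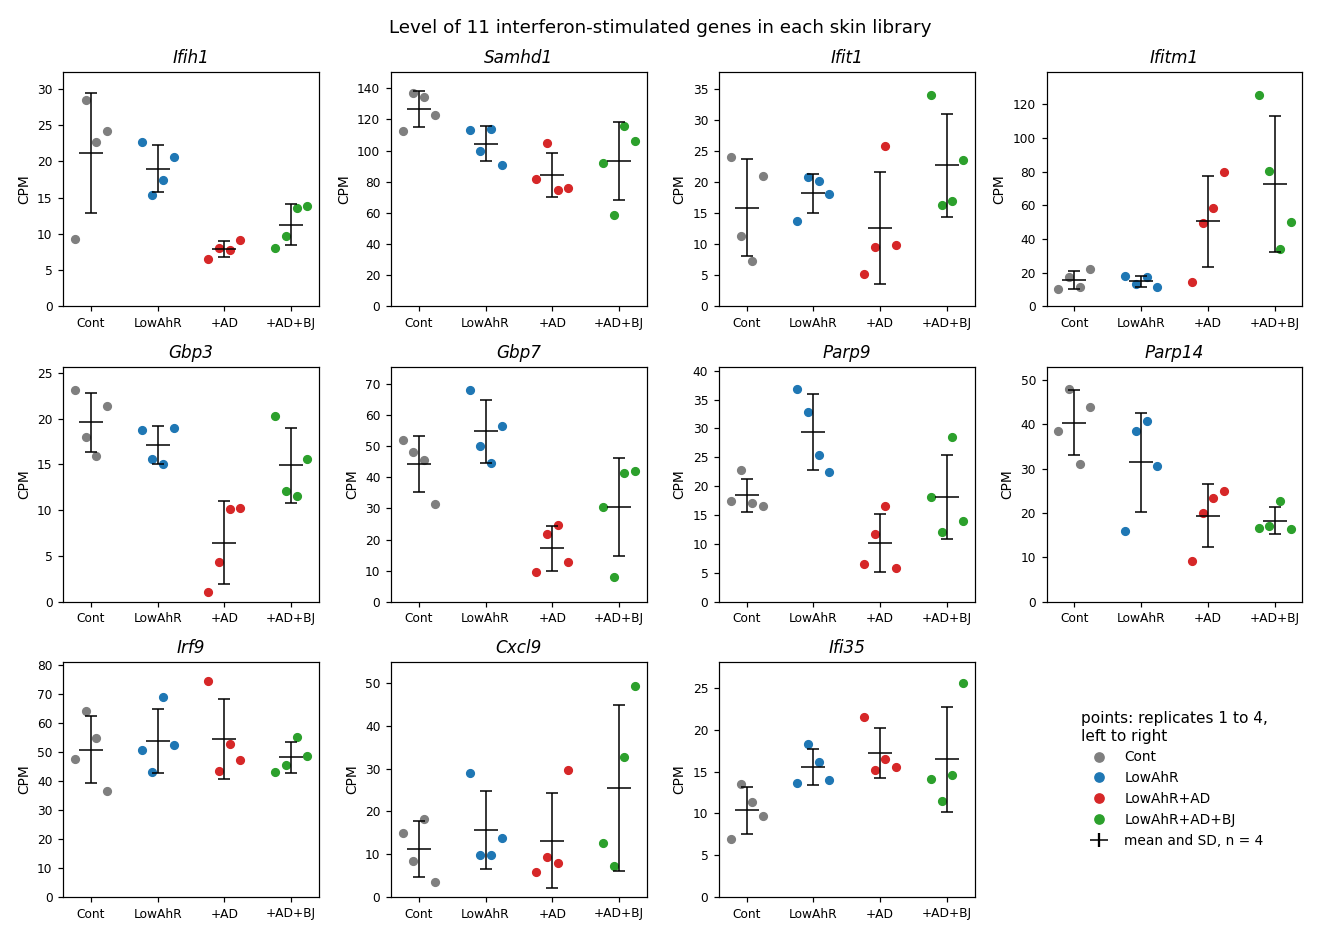
Level in CPM of 11 interferon-stimulated genes, 1 panel a gene, in the 4 groups. Points are the 4 libraries of a group, ordered by replicate number from left to right, and bars are the mean and SD; the axes start at 0. Ifih1, Gbp3, Gbp7 and Parp9 lie below LowAhR in all 4 LowAhR+AD libraries, and Ifitm1 lies above it in 3 of 4.

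The 4 transcription factor genes, the 2 chemokine genes and the 4 remaining genes held no call in any comparison. Among all tested genes 26% were called in at least 1 comparison. Irf9, which encodes the DNA-binding subunit of the complex at the ISRE, had 47.6, 64.3, 54.9 and 36.7 CPM in Cont, 50.8, 43.1, 69.03 and 52.5 in LowAhR, 74.6, 43.5, 52.9 and 47.1 in LowAhR+AD and 43.1, 45.7, 55.3 and 48.6 in LowAhR+AD+BJ. These ranges overlapped throughout, and the log2 fold change against LowAhR was 0.02 with a standard error of 0.23 (adjusted p = 0.971, edgeR). Its sign depended on the scaling and on the filter, and without LowAhR+AD replicate 1 it was -0.17. Irf1, a factor that interferon gamma induces, had 53.6 to 59.8 CPM in Cont and 24.4 to 46.7 in LowAhR+AD without overlap, but its log2 fold change of -0.61 did not pass (adjusted p = 0.178, edgeR). Irf7 and Irf8, which act in interferon production and in myeloid cells, had log2 fold changes of 0.03 and -0.53 against LowAhR. Cxcl9, a chemokine for T cells that interferon gamma induces, had 14.9, 8.39, 18.2 and 3.47 CPM in Cont, 29.1, 9.85, 9.75 and 13.8 in LowAhR, 5.80, 9.35, 7.84 and 29.6 in LowAhR+AD and 12.5, 7.33, 32.8 and 49.5 in LowAhR+AD+BJ. A single library of LowAhR+AD, replicate 4, was high, and the log2 fold change against LowAhR was -0.25 with a standard error of 0.63 (adjusted p = 0.842, edgeR) or -0.0086 without LowAhR+AD replicate 1. Cxcl10, which shares the receptor of Cxcl9, had 1.83, 0.410, 3.88 and 11.6 CPM in LowAhR+AD, with the same library highest. Ifi35 had 21.6, 15.3, 16.5 and 15.6 CPM in LowAhR+AD and 14.1, 11.5, 14.6 and 25.6 in LowAhR+AD+BJ. It lay above all Cont libraries in LowAhR+AD, at a log2 fold change of 0.73 (adjusted p = 0.104, edgeR), or 0.59 without replicate 1. Rtp4, a chaperone of receptors, had 0.0763, 14.1, 19.9 and 14.4 CPM in LowAhR+AD, with replicate 1 near 0, and without that library it was called higher than in Cont (1.52, adjusted p = 0.0372, edgeR). Ifi44 had a log2 fold change of 0.39 and Xaf1, which promotes apoptosis, one of -0.42 against LowAhR, both smaller than their standard errors.

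LowAhR+AD+BJ against LowAhR+AD asks what the herbal extract, with its gavage, did to DNCB-treated skin. No gene of the 40 was called (0%), and among all tested genes edgeR called 0% higher and 0% lower. At an unadjusted p under 0.05 there were 4 of the 40 (10%, beside 9.46% of all genes), namely Gbp2, Gbp3 and Parp9 fitted higher and Trim25 fitted lower. DESeq2 also called 0 of the 40, and 0.114% of all genes, and limma voom called 0 of the 40 and 0% of all genes. The median log2 fold change of the 40 was 0.38, beside a value near 0 for all tested genes, and 29 were fitted higher and 11 lower. That median was 0.19 without LowAhR+AD replicate 1, and without each of the 8 libraries in turn it ranged from 0.19 to 0.54. All 3 guanylate binding protein genes, all 4 sensors and all 3 IFIT genes were fitted higher, with none called, but Dhx58 and Ifit3 were fitted lower without LowAhR+AD replicate 1. The groups did not overlap in 1 gene (2.5%, beside 5.08% of all genes), which was Gbp3. Its log2 fold change was 1.21 with a standard error of 0.47 (adjusted p = 0.500, edgeR), and 0.85 without LowAhR+AD replicate 1 (adjusted p = 0.924, edgeR). Gbp2 had 27.2, 10.7, 60.3 and 71.4 CPM in LowAhR+AD+BJ, and its log2 fold change of 1.01 (adjusted p = 0.511, edgeR) came with 2 libraries above the LowAhR+AD range and 2 within it. The log2 fold change of Gbp7 was 0.83 (adjusted p = 0.527, edgeR), with LowAhR+AD+BJ replicate 2, at 8.04 CPM, below all LowAhR+AD libraries. For Parp9 it was 0.83 (adjusted p = 0.505, edgeR). Trim25 had 51.6, 24.2, 41.2 and 34.8 CPM in LowAhR+AD and 22.5, 15.5, 24.6 and 25.6 in LowAhR+AD+BJ, a log2 fold change of -0.78 (adjusted p = 0.498, edgeR). Ifitm1 had a log2 fold change of 0.52 with a standard error of 0.43, and Ifih1 one of 0.51 with a standard error of 0.33. These values share the LowAhR+AD libraries with the comparison of DNCB above, so a library that is low in that group enters both.

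**Figure D3:**
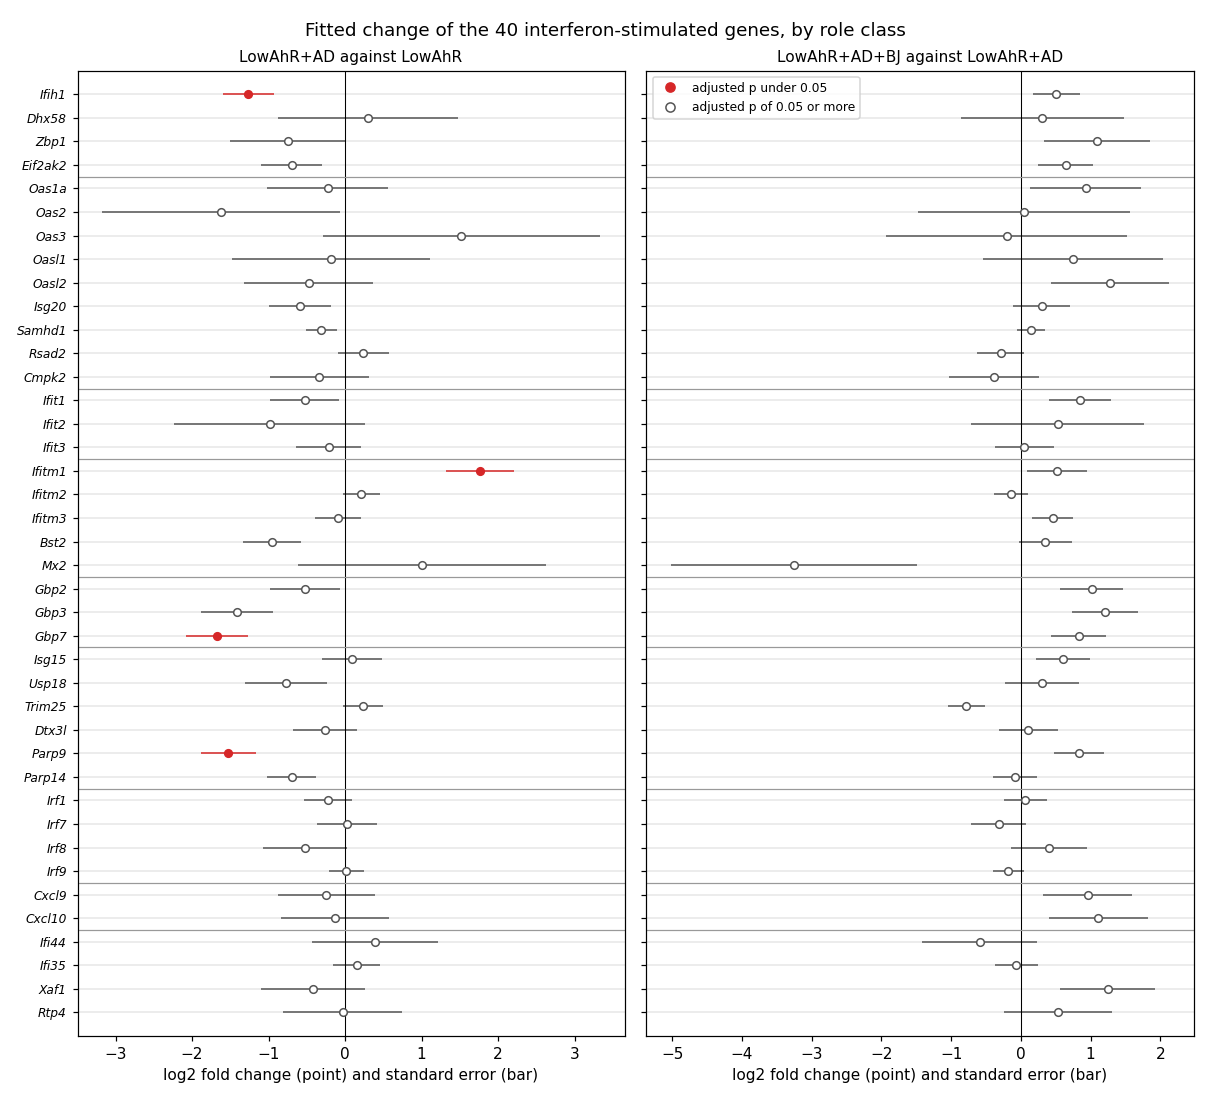
Fitted log2 fold change (point) and standard error (bar) of the 40 genes, by role, in LowAhR+AD against LowAhR (left) and in LowAhR+AD+BJ against LowAhR+AD (right). Filled points mark an adjusted p under 0.05: Ifih1, Gbp7 and Parp9 are on the lower side and Ifitm1 on the higher side at left, and there is none at right.

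LowAhR+AD+BJ against LowAhR sets skin that had both DNCB and the extract beside skin that had neither, in libraries that do not include the LowAhR+AD group. Here 1 of the 40 genes was higher (2.5%, beside 3.64% of all genes) and 0 were lower (0%, beside 3.12% of all genes). The median of the 40 was -0.14, beside 0.01 for all tested genes, and its sign turned without LowAhR+AD+BJ replicate 2, to 0.055. The groups did not overlap in 4 genes (10%, beside 17.1% of all genes), Ifitm1 on the higher side and Ifih1, Gbp7 and Trim25 on the lower. Every LowAhR+AD+BJ library had more Ifitm1 than every LowAhR library. The mean was 72.6 ± 40.2 CPM (SD, n = 4), and the log2 fold change of 2.28 with a standard error of 0.45 (adjusted p = 0.00715, edgeR) was called in all 8 fits that left out 1 library and in all 9 other settings. Ifih1 had a log2 fold change of -0.75 (adjusted p = 0.191, edgeR) and Gbp7 one of -0.85 (adjusted p = 0.213, edgeR). DESeq2 and limma voom also called 0 of the 40 lower, beside 5.79% and 3.55% of all genes, and 4 of the 40 had an unadjusted p under 0.05 in edgeR in either direction (10%, beside 22.2% of all genes). Ifitm1 was thus higher in both DNCB-treated groups, each measured in its own 4 mice against the same LowAhR mice.

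Upstream of the 40 genes, the interferons themselves were hardly counted. Of 16 interferon and receptor genes, 10 interferon genes did not pass the filter. Ifnk, the keratinocyte interferon, had counts in 2 libraries, 1.17 CPM in LowAhR replicate 3 and 1.73 CPM in LowAhR+AD+BJ replicate 2. Ifng, the type II interferon, had counts in 1 library, LowAhR+AD+BJ replicate 3, at 0.389 CPM. The other 8, among them Ifnb1, had no count in any library, a limit of 0.229 to 0.406 CPM by library. The 6 receptor genes passed the filter, and 0 were called in any comparison, although Ifngr1 was called lower than in Cont without LowAhR+AD replicate 1. Ifngr1, a chain of the receptor for interferon gamma, had 120.2 ± 9.97 CPM in LowAhR and 93.7 ± 36.4 in LowAhR+AD, a log2 fold change of -0.36 (adjusted p = 0.395, edgeR), and Ifnar1 and Ifnar2 had log2 fold changes of 0.32 and -0.46. Of 20 genes for signalling and for other sensors, 19 were tested and 0 were called in any comparison. Both counts stand beside 26% of all tested genes called in at least 1 of the 5 comparisons.

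A wider list held 53 other interferon-induced genes, 51 of them tested, of which 2 were also on the signalling list. Against LowAhR, 0 were called higher and 3 lower in LowAhR+AD, where 6.42% of all genes were higher and 6.21% lower. The median log2 fold change of the 51 was -0.70, beside 0.04 for all tested genes, with 9 fitted higher and 42 fitted lower. The 3 were Cd274 (-1.93, adjusted p = 0.00482, edgeR), Ifi27l2a (-1.57, adjusted p = 0.0236, edgeR) and Epsti1 (-1.11, adjusted p = 0.0330, edgeR). Cd274 encodes PD-L1, the ligand of the inhibitory T cell receptor PD-1, and had 20.5, 34.8, 30.3 and 15.5 CPM in LowAhR and 4.42, 5.33, 9.24 and 7.54 in LowAhR+AD. Without LowAhR+AD replicate 1 the median was -0.58, Cd274 (-1.79, adjusted p = 0.0108, edgeR) and Ifi27l2a (-1.25, adjusted p = 0.0232, edgeR) were still called, and Epsti1 was not (-1.06, adjusted p = 0.0619, edgeR). Against Cont 6 of the 51 were lower and 0 higher, where 9.47% of all genes were lower, with Cd274 and Epsti1 joined by Ddx60, Ifi205, Mnda and Apobec3. Without LowAhR+AD replicate 1 the count was 3, namely Cd274, Ddx60 and Nlrc5, where 10.6% of all genes were lower. In LowAhR+AD+BJ against LowAhR+AD 0 were called, with a median of 0.40, or 0.33 without LowAhR+AD replicate 1. Cd274 was lower in LowAhR+AD+BJ than in LowAhR (-1.93, adjusted p = 0.00848, edgeR), and 0 other genes of the list were called there. Ifi205 and Mnda belong to one family of close copies, so the division of reads between them is uncertain.

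**Figure D4:**
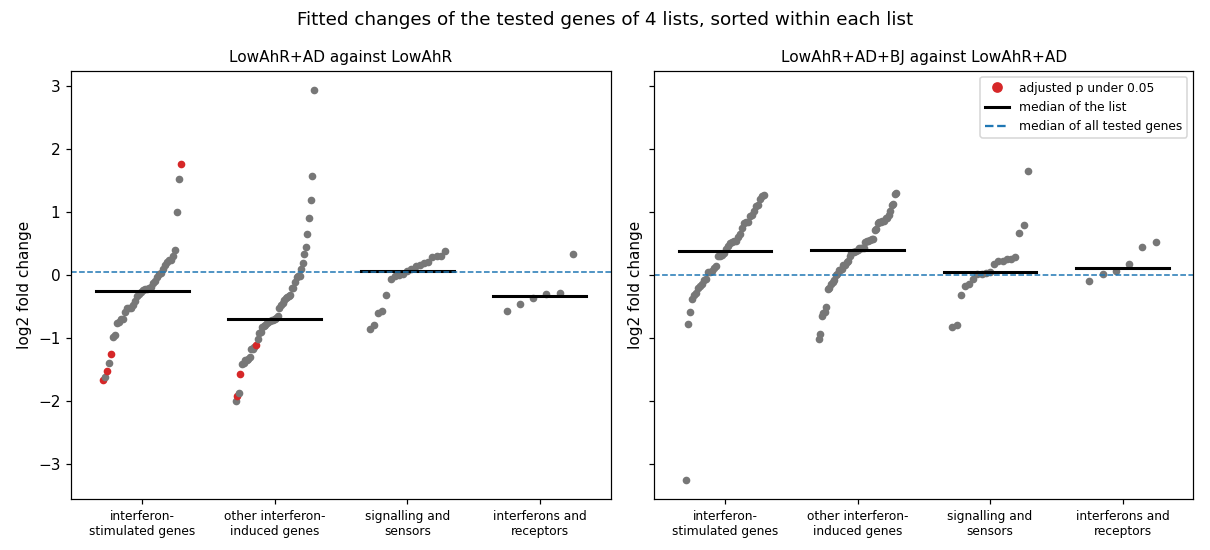
Fitted log2 fold change of every tested gene of 4 lists (40 interferon-stimulated genes, 51 other interferon-induced genes, 19 signalling and sensor genes, 6 receptor genes), sorted within each list, in LowAhR+AD against LowAhR (left) and LowAhR+AD+BJ against LowAhR+AD (right). Black lines are list medians and the dashed line is the median of all tested genes; the medians of the interferon-induced lists are -0.26 and -0.70 at left and 0.38 and 0.40 at right.

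Marker genes of the cell types that a piece of skin can hold also differed between the groups. Of 10 skeletal muscle markers, 10 were lower in LowAhR+AD than in LowAhR, and their summed level was 8494 to 21594 CPM in LowAhR and 435 to 3591 CPM in LowAhR+AD. Of 7 adipocyte markers, 6 were lower, with sums of 7119 to 11550 and 364 to 3796 CPM. Of 5 fibroblast markers, 2 were lower (27637 to 53283 and 3851 to 21714 CPM), and of 5 keratinocyte markers 2 were higher (4986 to 6324 and 6217 to 12894 CPM). Of 4 neutrophil markers, 3 were tested and 2 were higher (5.96 to 13.7 and 15.5 to 76.4 CPM). Among cells that make or answer interferon gamma, 2 of 8 T cell markers, Cd3e and Cd3g, were lower. In all, 7 of the 8 were fitted lower and 1 higher, with a median log2 fold change of -1.75. The sum, in which abundant markers weigh most, was 103 to 210 CPM in LowAhR and 206 to 304 in LowAhR+AD. Of 9 macrophage markers 0 were called (1480 to 1669 and 241 to 1651 CPM). Of these, 8 were fitted lower, with a median of -0.50, or -0.16 without LowAhR+AD replicate 1. Of 8 dendritic and Langerhans cell markers 1 was called lower (142 to 181 and 112 to 154 CPM). In that list 7 were fitted lower, with a median of -1.49, or -1.08 without LowAhR+AD replicate 1. The 6 NK cell markers summed to at most 19.1 CPM in any library. Ncr1 had no count in Cont and LowAhR+AD, Prf1 none in LowAhR+AD and LowAhR+AD+BJ, and Gzmb none in LowAhR. The NK sum was 4.33 to 19.1 CPM in LowAhR and 0 to 5.83 CPM in LowAhR+AD. The 3 NK markers tested were all fitted lower against LowAhR, with 0 called. Of 5 plasmacytoid dendritic cell markers 0 were called. The 3 B cell markers did not pass the filter. Of 4 endothelial markers 0 were called against LowAhR. The 10 hair follicle markers were all higher in LowAhR+AD than in Cont (2.82 to 489 and 4875 to 15439 CPM) and 0 were called against LowAhR (42.7 to 6266 CPM). Without LowAhR+AD replicate 1, 8 of the 10 muscle markers were lower than in LowAhR, 1 endothelial marker (Cdh5) was higher, and the counts called in the other lists were as before. In LowAhR+AD+BJ against LowAhR+AD 0 markers of any list were called, beside 0% of all genes. Median log2 fold changes there were 0.74 (T cell), 1.84 (NK cell), 0.46 (macrophage), 0.90 (dendritic and Langerhans cell) and 0.46 (plasmacytoid dendritic cell). They were 1.18 (muscle), 0.15 (adipocyte), 0.12 (fibroblast), -0.29 (neutrophil), -0.28 (keratinocyte), -0.39 (hair follicle) and -0.77 (endothelial). Without LowAhR+AD replicate 1 the macrophage median was 0.17, and those of adipocyte and fibroblast markers were -0.21 and -0.045. The part of these differences in the results above was not tested. Leaving the muscle, hair follicle and adipocyte markers out of the library sizes changed no call among the 40 genes.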

How the data were processed

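Total RNA from dorsal skin was made into QuantSeq 3′ libraries and sequenced from a single end on a NextSeq 500. For each of the 16 libraries the authors deposited raw read counts listed by gene symbol. The submitters' processing notes name Bowtie2, bedtools and the build mm10. The role of these tools, the annotation and the handling of reads that map to several places are not given in the sources used here, and the paper names ExDEGA for differential expression.

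The counts entered edgeR 4.0.16 under R 4.3.3. Rows were kept by filterByExpr (minimum count 10, minimum total 15) and scaled by TMM factors of 0.892 to 1.16. All 16 libraries entered 1 quasi-likelihood model for 5 comparisons, with Benjamini-Hochberg adjustment over 14854 rows and a threshold of 0.05. The standard error is the log2 fold change divided by the root of its F statistic. Log2 CPM used a prior count of 2. Replicates of a group differed by far more than sampling noise, with at least 16.9 of chi-square per degree of freedom, so each library counted once. P-values measure the spread between mice. Groups and replicate numbers came from the sample titles, and no sample was left out. The statistics were tested on simulated data beforehand.

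Values in every library are given for each gene called in at least 1 comparison and, for role classes without one, for the gene with the highest mean CPM, and more briefly for others. The 40 genes and all lists were chosen with earlier results of these data known. Promoters came from a RefSeq table of GRCm38.p6, the genome that mm10 also names. Each result was also computed with DESeq2 1.42.0, limma voom (limma 3.58.1), RLE factors, upper-quartile factors, no filter, a minimum of 10 counts in every library, a block for the replicate number, a fit of the 8 libraries at issue alone, library sizes without muscle, hair follicle and adipocyte markers, and each library left out in turn.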

Additional observations from a re-analysis of the deposited data

Results flagged for a closer look

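Each of the 40 genes was checked in each of the 4 groups for a library whose gap to the nearest of the other 3 took up more of the group's range, on the log2 scale, than Dixon's criterion for 4 samples allows. Of 160 such checks 9 stood out, and chance alone gives about 5%. In LowAhR+AD replicate 1, the library that stands apart in the report, Zbp1 was at 0 CPM against 12.2 to 20.1 CPM in the other libraries of its group, and Rtp4 at 0.0763 CPM against 14.1 to 19.9 CPM. In LowAhR+AD replicate 4, Eif2ak2 was at 15.3 CPM against 10.4 to 10.7 CPM. In LowAhR replicate 3, Oas1a was at 1.30 CPM against 2.97 to 3.20 CPM, and in LowAhR replicate 4 Ifitm2 was at 105 CPM against 207 to 237 CPM. In Cont replicate 1, Ifitm3 was at 428 CPM against 631 to 662 CPM and Dtx3l at 4.62 CPM against 9.94 to 10.5 CPM. In LowAhR+AD+BJ replicate 2, Oasl1 was at 0 CPM against 2.52 to 3.92 CPM, and in LowAhR+AD+BJ replicate 3 Parp14 was at 22.8 CPM against 16.4 to 17.1 CPM.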

How the results depend on the processing

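Limma voom called 0 of the 40 genes higher in LowAhR+AD against LowAhR and 0 against Cont, in place of 1 and 1, since Ifitm1 missed its threshold, and a fit of only the 8 libraries compared called 3 lower against Cont in place of 5, without Gbp3 and Samhd1. The cause of either was not tested. The other planned settings kept the counts of called genes within 1.5 times, although the filter of at least 10 counts in every library left 27 of the 40 genes to test. With 1 library left out, the count lower in LowAhR+AD ranged from 2 to 4 against LowAhR and from 2 to 5 against Cont, and the count higher from 0 to 1 and from 1 to 2. Ifitm1 in LowAhR+AD+BJ against LowAhR, and Gbp7 and Parp9 in LowAhR+AD against LowAhR, were called in every setting and every such fit. The same held for Ifih1 in LowAhR+AD against Cont.

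The sign of some fitted changes, none of them called, depended on the setting. Irf9 in LowAhR+AD against LowAhR was -0.035 with upper-quartile factors and -0.0020 with at least 10 counts in every library, and Parp14 in LowAhR+AD+BJ against LowAhR+AD was 0.022 with limma voom. With each library left out in turn, the log2 fold change in LowAhR against Cont ranged from -0.010 to 0.81 for Cxcl9, -0.40 to 0.022 for Ifih1, -0.037 to 0.46 for Ifit1, -0.20 to 0.17 for Ifitm1 and -0.061 to 0.22 for Irf9. In LowAhR+AD it ranged for Cxcl9 from -0.55 to 0.57 against Cont and -1.03 to 0.24 against LowAhR, and for Irf9 from -0.10 to 0.23 and -0.17 to 0.17. In LowAhR+AD+BJ against LowAhR+AD it ranged from -0.36 to 0.062 for Ifi35, -0.28 to 0.0050 for Irf9 and -0.32 to 0.064 for Parp14, and against LowAhR from -0.21 to 0.22 for Ifi35 and -0.29 to 0.00068 for Samhd1. The causes were not tested.

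Replicate numbers are shared by the groups but name separate mice, so they pair nothing by design. Deviations from the group means correlated with r from -0.05 to 0.17 over the 24 pairs with the same number, 3 of them over 0.1. Over the 72 pairs with another number r ran from -0.15 to 0.14. Of the 16 libraries, 7 correlated best with a library of their own number. With the replicate number as a block, 1 gene was higher and 3 were lower in LowAhR+AD against LowAhR, and 1 was higher and 4 were lower against Cont, where Samhd1 was not called (-0.58, adjusted p = 0.0753, edgeR). The block changed no other call among the 40.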

Other observations

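A few genes were set against their close neighbours or relatives within each library, in pairs chosen after their values were seen and therefore given with no test. Ifitm1 relative to Ifitm3 had a log2 ratio of -5.83 ± 0.34 (SD, n = 4) in LowAhR, between -6.14 and -5.36, and of -4.07 ± 0.33 in LowAhR+AD, between -4.54 and -3.79. In LowAhR+AD+BJ it was -4.04 ± 0.63. All 4 LowAhR+AD libraries, replicate 1 included, thus lay above all 4 LowAhR libraries by this ratio, although the CPM of Ifitm1 in replicate 1 lay among those of LowAhR. Relative to Ifitm2 they did not: the ratio was -3.63 ± 0.33 in LowAhR, between -3.97 and -3.19, and -2.34 ± 1.16 in LowAhR+AD, between -4.02 and -1.42, so that the lowest LowAhR+AD library lay below all of LowAhR. Gbp7 relative to Gbp2 went from 0.85 ± 0.39 in LowAhR to -0.29 ± 0.66 in LowAhR+AD and was -0.39 ± 0.39 in LowAhR+AD+BJ. Parp9 relative to Dtx3l went from 1.40 ± 0.72 in LowAhR to 0.13 ± 0.59 in LowAhR+AD and was 0.81 ± 0.20 in LowAhR+AD+BJ, and Gbp3 relative to Gbp2 went from -0.81 ± 0.35 to -1.98 ± 0.89. The LowAhR and LowAhR+AD libraries overlapped in both of the last ratios.

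The 40 genes varied most among the LowAhR+AD libraries, but not when replicate 1 was left out. Their median SD within the group was 0.75 on the log2 scale in LowAhR+AD, 0.52 in Cont, 0.53 in LowAhR and 0.59 in LowAhR+AD+BJ, and the median over all tested genes was 0.61 in LowAhR+AD and 0.46 to 0.49 in the other groups. Over the 3 LowAhR+AD libraries without replicate 1 the medians were 0.50 and 0.38. This difference in spread was not tested. The summed level of the 40 genes ran from 1084 CPM in LowAhR+AD replicate 1 to 2607 CPM in LowAhR+AD+BJ replicate 1.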
